A study of Homo sapiens with 3 samples.

Results

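ACTB, PPIA, YWHAZ, HPRT1, GUSB, IPO8 and TBP are genes commonly used as references in RT-qPCR, and they were taken by their symbol from the gene tables of the series. All 7 symbols were found, each once, among the 39320 genes on the main chromosomes and the mitochondrial genome, out of 43389 gene entries shared by the 3 tables, and no further entry of these symbols lay on an unplaced or alternate sequence. The study concerned splice variants of the RNA methyltransferase METTL3 in liver cancer, with RT-qPCR normalised to GAPDH. Its deposited sequencing data are polyA RNA-seq of libraries labelled as the liver cancer cell line HepG2 with a WT genotype, as replicates 1, 2 and 3. Nothing in the labels says whether the 3 libraries came from separate cultures, so the spread between them may be technical. The number of reads behind each value was not known, since the tables give no counts. With 1 condition there was no comparison between groups, and what can be described is the level of each gene, its spread between libraries and its level relative to the other genes.

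The label was set against marker genes. Of 8 hepatocyte markers (ALB, AFP, APOA1, APOB, SERPINA1, TTR, FGB and TF), 8 were below 1 TPM (a transcript level scaled for gene length and library size) in all 3 libraries, and ALB, APOA1, APOB, SERPINA1 and FGB were listed at 0 in all of them. Their summed level was 0.0571, 0.244 and 0.133 TPM in replicates 1, 2 and 3, and the most abundant was TTR. These markers of liver cells were thus at or close to 0, and the samples are therefore called the libraries labelled HepG2. Among epithelial markers, KRT8 stood at 2642, 2599 and 2588 TPM and KRT18 at 2129, 1993 and 1928 TPM, CDH1 lay near 1 TPM and EPCAM was below 1 TPM in all libraries. The mesenchymal marker VIM stood at 749, 672 and 661 TPM, and its list summed to 756, 680 and 669 TPM, nearly all of it VIM. The other members of that list were low. COL1A1 stood at 6.30, 7.39 and 7.10 TPM, FN1 at 1.04, 0.804 and 0.883 TPM, and COL1A2 was below 1 TPM in all libraries. The 4 blood markers summed to 1.41, 1.63 and 1.26 TPM, with PTPRC and CD3E at 0, and the 3 endothelial markers summed to 1.85, 1.60 and 1.45 TPM, mostly from VWF. Whether the identity of the cells bears on the reference genes was not tested.

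RT-qPCR measures a transcript relative to a reference transcript, so a useful reference varies little between the samples compared. Reference genes are usually drawn from functions that most cells carry out, such as the cytoskeleton, protein folding, nucleotide salvage and basal transcription, and candidates from unrelated functions are ranked by how constant their ratios to each other are. In liver and liver cancer work GAPDH and ACTB are widely used, and their levels are known to differ between tissues and growth states.

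ACTB encodes cytoplasmic beta-actin, which differs little from the gamma-actin encoded by ACTG1, and PPIA encodes cyclophilin A, which has many processed copies in the genome. The first bases of their coding sequences are printed with those of a close relative, as examples of a coding relative and of a processed copy. Sequences were read from GRCh38 with the MANE Select transcripts of GENCODE release 44. Capitals mark bases that differ from the member, and positions are counted from 1 at the A of the start codon.
ACTB: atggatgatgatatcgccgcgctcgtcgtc
ACTG1: atggaAgaAgaGatcgccgcgctGgtcAtT
PPIA: atggtcaaccccaccgtgttcttcgacatt
PPIAP22: atggtcaaccccaccgtgttcttcgacatt
PPIAL4A: atggtcaacTccGTcgtCttTttTgacatC
The ACTB stretch lies in exon 2 at chr7:5529628-5529657 on the minus strand, and that of ACTG1 in exon 2 at chr17:81512325-81512354 on the minus strand. ACTG1 differed from ACTB at 6 of these 30 bases (T6A, T9A, T12G, C24G, G28A and C30T). Over the whole coding sequence of 1125 bases, ACTB and ACTG1 shared 1027 bases, or 91.3%. The PPIA stretch lies in exon 1 at chr7:44796725-44796754 on the plus strand. The processed pseudogene PPIAP22 carried the same 30 bases at chr21:18857779-18857808 on the plus strand, and it matched 493 of the 495 coding bases of PPIA, or 99.6%. PPIAL4A, a PPIA-like gene at chr1:120889821-120889850 on the plus strand, differed at 7 of the 30 bases (C10T, A13G, C14T, G18C, C21T, C24T and T30C).

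The primers that the study used for GAPDH are shown because they define the product of its RT-qPCR reference, and capitals are not used in them. The 7 genes are set here against the deposited level of the whole GAPDH gene.
GAPDH forward primer: tcaagtggggcgatgctggc
GAPDH reverse primer: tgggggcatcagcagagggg
The forward primer lies in exon 5 at chr12:6536937-6536956 on the plus strand and the reverse primer in exon 6 at chr12:6537142-6537161 on the minus strand, and they enclose a product of 135 bases in the MANE Select transcript. Of 252835 GENCODE transcripts searched, 10 held both primers, and 10 of these 10 were transcripts of GAPDH.

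The 7 genes covered a wide span of levels and kept the same order in 3 of 3 libraries, ACTB, PPIA, YWHAZ, HPRT1, GUSB, IPO8 and TBP from high to low. Genes averaging 1 TPM or more were counted as expressed, and among these ACTB ranked 7 from the top and TBP 6774. ACTB was 319 ± 19.3 times as high as TBP (SD, n = 3), so the candidates that are furthest apart differ in level by far more than any of the 7 varied between libraries. The level and the constancy of a reference are separate properties, and each gene is described by both. The highest and the lowest library are given by TPM as deposited, and with median-of-ratios scaling the highest library of ACTB, PPIA and HPRT1 was replicate 3 in place of replicate 1.

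**Figure D1:**
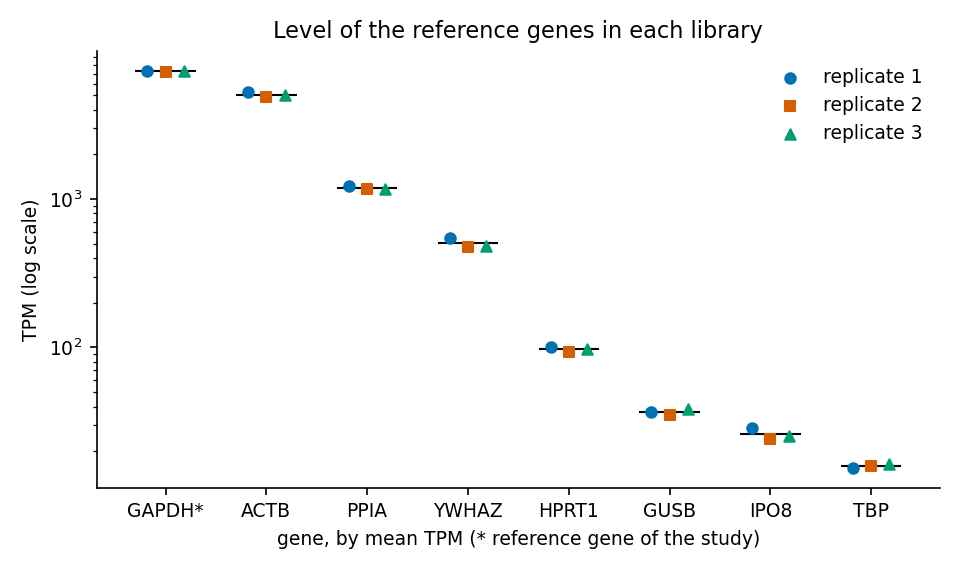
TPM on a log scale for GAPDH and the 7 reference genes, ordered by mean, with a point for each of 3 libraries and a line at the mean. The order from ACTB (mean 5054 TPM) to TBP (mean 15.9 TPM) was the same in each library, and GAPDH (mean 7264 TPM) lay above them.

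The cytoskeletal gene ACTB (chr7:5527148-5530601, minus strand, GRCh38) stood at 5265, 4889 and 5009 TPM in replicates 1, 2 and 3, a mean of 5054 ± 192 TPM (SD, n = 3). Replicate 1 was the highest and replicate 2 the lowest, and the coefficient of variation (CV, the SD as a percent of the mean) was 3.81%. The CV was 1.72% without replicate 1 and 5.25% without replicate 3. ACTB lay above 99.9% of expressed genes. ACTG1, the other cytoplasmic actin, stood at 3123, 2913 and 2965 TPM, and ACTB was 1.69, 1.68 and 1.69 times as high in the respective libraries. The ratio of the 2 cytoplasmic actins thus moved less between libraries than either gene. Of the muscle actins, ACTA2 stood at 2.53, 3.66 and 2.51 TPM, and ACTA1, ACTC1 and ACTG2 were below 1 TPM in all libraries.

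PPIA (chr7:44795960-44803123, plus strand), a peptidyl-prolyl isomerase that assists protein folding, stood at 1219, 1177 and 1172 TPM, a mean of 1189 ± 25.4 TPM (SD, n = 3). With 3 libraries its CV of 2.14% was the lowest of the 7, and replicate 1 lay above the other libraries. Of 7 further cyclophilins, 7 were at 1 TPM or more in all libraries. A CV below 5% was found in 4 of the 7, near the share of 51.6% among all genes averaging 10 TPM or more. PPIB, the cyclophilin of the endoplasmic reticulum, stood at 665, 669 and 655 TPM with a CV of 1.03%, and PPIA was 1.79 ± 0.0367 times as high (SD, n = 3). PPIF, the mitochondrial cyclophilin, stood at 270.1, 252 and 256 TPM.

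YWHAZ (chr8:100916523-100954068, minus strand) encodes the zeta member of the 14-3-3 proteins, adaptors that bind phosphorylated partners. It stood at 545, 476 and 485 TPM, a mean of 502 ± 37.8 TPM (SD, n = 3). Replicate 1 lay above the other libraries, which were close to each other, and the CV was 7.54%. The most abundant gene of this family was YWHAE, at 809, 711 and 732 TPM, with its highest value in replicate 1. By TPM, YWHAE was 1.48, 1.49 and 1.51 times as high as YWHAZ, so by this measure their ratio varied less than their levels. YWHAQ stood at 406, 373 and 369 TPM and YWHAB at 275, 249 and 253 TPM, with the highest value in replicate 1. Among all genes averaging 10 TPM or more, 62.5% had their highest value in replicate 1. Of the 6 family members listed besides YWHAZ, 3 had a CV below 5%, near the share of 51.6% among all genes averaging 10 TPM or more. SFN, the sigma member, had its lowest value in replicate 1, at 276 TPM against 290.1 and 289 TPM.

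HPRT1 (chrX:134460165-134500668, plus strand), which salvages hypoxanthine and guanine for nucleotide synthesis, stood at 100.4, 92.9 and 98.4 TPM, a mean of 97.2 ± 3.88 TPM (SD, n = 3). Replicate 2 was the lowest, and the CV was 3.99%, the middle value of the 7. PRTFDC1, a relative of HPRT1, stood at 16.2, 16.5 and 15.9 TPM with a CV of 1.71%. HPRT1 lay above 88.7% of expressed genes.

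GUSB (chr7:65960684-65982314, minus strand), the lysosomal enzyme beta-glucuronidase, stood at 36.7, 35.0 and 38.6 TPM, a mean of 36.8 ± 1.76 TPM (SD, n = 3). Replicate 3 was the highest, and the CV was 4.78%. GUSB lay above 71.9% of expressed genes. Its level was close to that of METTL3, which stood at 31.1, 33.6 and 31.5 TPM.

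IPO8 (chr12:30628981-30695986, minus strand), an importin that carries proteins into the nucleus, stood at 28.6, 24.0 and 25.3 TPM, a mean of 26.0 ± 2.35 TPM (SD, n = 3). With 3 libraries its CV of 9.05% was the highest of the 7, with replicate 1 above the other libraries, and without replicate 1 it was 3.78%. IPO7, a related importin, stood at 158, 143 and 140 TPM, with a CV of 6.58%. It was highest in replicate 1, as were 62.5% of genes averaging 10 TPM or more. IPO7 was 5.66 ± 0.241 times as high as IPO8 (SD, n = 3).

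TBP (chr6:170554333-170572870, plus strand), the TATA-binding protein of basal transcription, stood at 15.4, 15.9 and 16.3 TPM, a mean of 15.9 ± 0.429 TPM (SD, n = 3). Its CV was 2.70%, and replicate 1 was the lowest library. TBP lay above 50.7% of expressed genes, near the middle of the distribution. Its relative TBPL1 stood at 9.06, 8.58 and 7.32 TPM, highest in replicate 1, and TBPL2 was below 1 TPM in all libraries.

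By TPM as deposited in 3 libraries, the lowest spread among the 8 genes drawn belonged to GAPDH (chr12:6534517-6538375, plus strand), the glycolytic enzyme used as the reference of the study. It stood at 7332, 7172 and 7289 TPM, a mean of 7264 ± 82.8 TPM (SD, n = 3), with a CV of 1.14%. Without replicate 2 the CV of GAPDH was 0.421%, and without replicate 1 it was 1.14% against 0.290% for PPIA. Among genes averaging 10 TPM or more, a lower CV than that of GAPDH was found in 4.48%, against a share of 14.4% for PPIA, 21.4% for TBP, 36.1% for ACTB, 38.7% for HPRT1, 49.0% for GUSB, 77.5% for YWHAZ and 86.7% for IPO8. TBP thus joined the lowest level of the 7 with the second lowest CV, but this depended on the scaling. With median-of-ratios scaling the CV was 0.696% for PPIA, 2.00% for ACTB, 2.35% for GAPDH and 3.44% for HPRT1, and TBP, at 5.36%, lay above these and above YWHAZ at 4.94%.

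A CV below 5% was found in 5 of the 7 genes (ACTB, HPRT1, TBP, PPIA and GUSB) and in 51.6% of the 8419 genes that averaged 10 TPM or more. A CV below 10% was found in 7 of 7 and in 90.5% of those genes. The median CV was 3.99% for the 7 genes and 4.88% for the 8419, of which the middle part (lower to upper quartile) ran from 2.96% to 7.25%. By TPM the reference genes were therefore spread over the range of genes in general, with PPIA and TBP below the lower quartile and YWHAZ and IPO8 above the upper one. This placement changed with the libraries used. Without replicate 1, where the quartiles of the 8419 genes were 1.13% and 4.69%, the CV was 1.41% for YWHAZ, 3.78% for IPO8 and 6.75% for GUSB, then the highest of the 7. The share of genes with a lower CV went from 77.5% to 30.5% for YWHAZ, from 86.7% to 66.0% for IPO8 and from 49.0% to 87.0% for GUSB. The lowest CV was that of HPRT1, 1.47%, without replicate 2 and that of TBP, 1.98%, without replicate 3, against 2.74% and 2.45% for PPIA. Without replicate 1 the median CV was 1.85% for the 7 genes and 2.52% for all. Without replicate 3, 3 of 7 lay below 5%, and so did 54.9% of all genes. After median-of-ratios scaling TBP and GUSB (6.14%) lay above 5% and YWHAZ below it, which left 4 of 7 below 5%, against 62.0% of all genes.

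**Figure D2:**
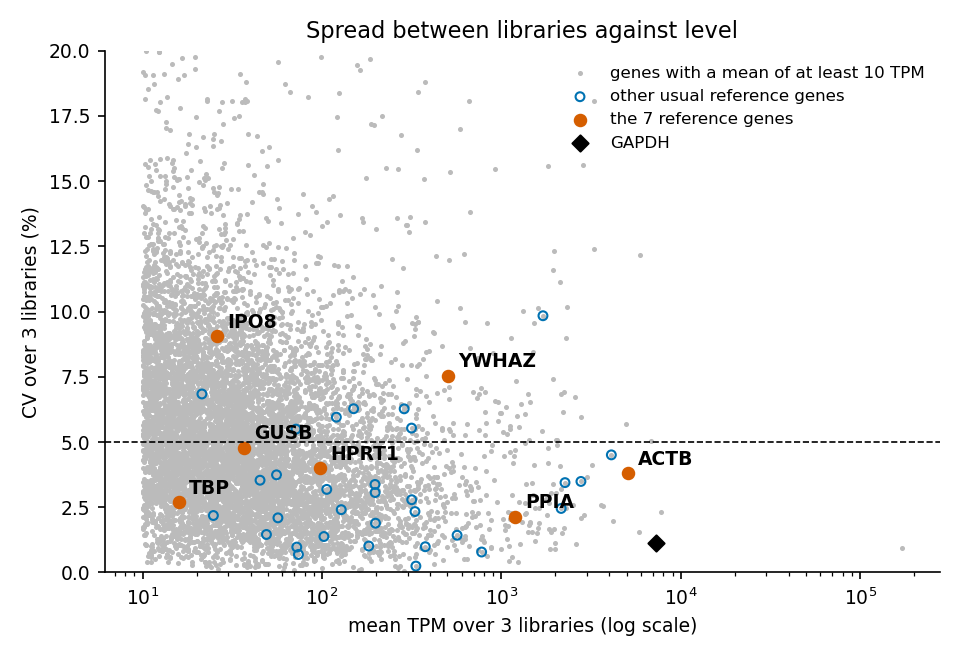
CV over 3 libraries against mean TPM on a log scale for genes averaging 10 TPM or more (grey), 31 other usual reference genes (open circles), the 7 reference genes (orange, named) and GAPDH (diamond), with a dashed line at 5%. The 98 genes with a CV above 20% are not drawn, and YWHAZ and IPO8 lie above the dashed line at 7.54% and 9.05%.

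A list of 31 other usual reference genes, from ribosomal proteins to proteasome subunits, was set beside the 7. Of these 31, 31 averaged 10 TPM or more, 24 had a CV below 5%, or 77.4%, and the median CV was 2.79%. Their median level was 197 TPM, and among all genes averaging 100 TPM or more 68.7% had a CV below 5% with a median of 3.51%, so the share in the list was near that of genes of such levels. The highest mean among them was that of RPL13A, a ribosomal protein, with 3898, 4148 and 4259 TPM, and the lowest that of MRPL19, a protein of the mitochondrial ribosome, with 23.1, 20.5 and 20.6 TPM. The glycolytic enzyme GPI had the lowest CV, 0.244%, with 334, 335 and 333 TPM. RPL30, another ribosomal protein, had the highest, 9.84%, with 1512, 1791 and 1812 TPM. Of the 31 genes, 11 had a CV below that of PPIA, and RPL30 alone had one above that of IPO8.

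The libraries that stood high or low were not the same for the 7 genes. In bulk RNA, fewer cells of a type and less RNA per cell cannot be told apart. The highest value was in replicate 1 for 5 of the 7 (ACTB, PPIA, YWHAZ, HPRT1 and IPO8) and for 62.5% of the 8419 genes. It was in replicate 3 for 2 of the 7 (GUSB and TBP), against 17.1% of genes, and in replicate 2 for 0 of the 7, against 20.3%. Relative to its own mean, IPO8 stood at 110.03% in replicate 1, YWHAZ at 109% and ACTB at 104%, whereas TBP stood at 97.3%. In replicate 2, IPO8 stood at 92.4% and YWHAZ at 94.7% of their means, and TBP stood at its mean. Which library was highest depended on the scaling between libraries. With median-of-ratios scaling, YWHAZ and IPO8 were highest in replicate 1 and the other 5 genes in replicate 3, and the share of all genes was 38.9% with the highest value in replicate 1 and 32.5% in replicate 3. The TPM of mitochondrially encoded genes made up 19.9%, 20.2% and 20.2% of the total in replicates 1, 2 and 3, and after rescaling without these genes the CV was 3.60% for ACTB, 7.31% for YWHAZ and 8.83% for IPO8, close to the values with them.

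**Figure D3:**
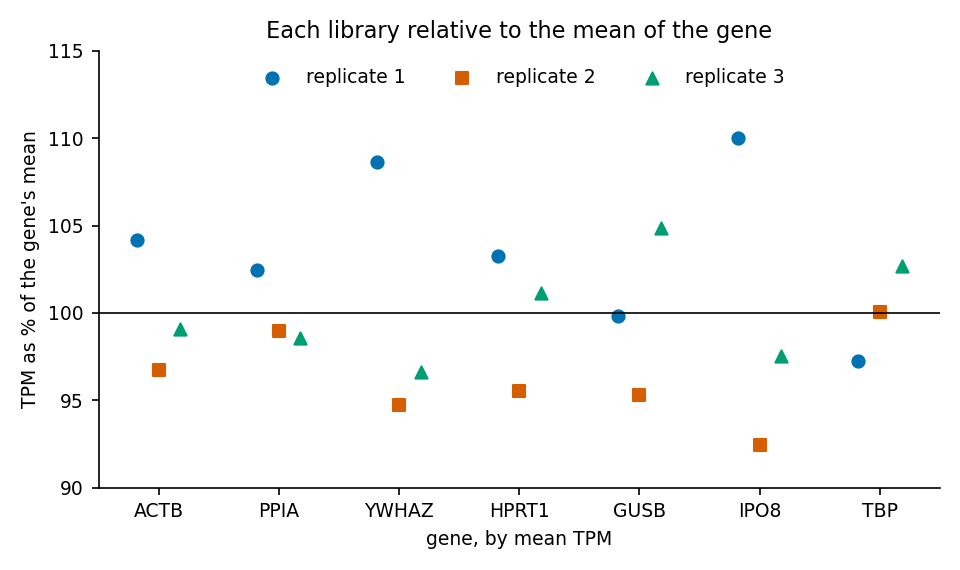
TPM of each reference gene in each of 3 libraries as a percent of the mean of that gene, with a line at 100%. YWHAZ and IPO8 lie highest in replicate 1 (109% and 110.03%), whereas TBP lies lowest there (97.3%).

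Ratios between the genes were compared next, because scaling a whole library leaves the ratio of 2 genes within it nearly as it was. After adding a pseudocount of 1 to TPM, log2 ratios were taken, with the ratio of TPM itself beside them, for each neighbouring pair in the order of mean level, which made 6 comparisons. Since the pairs were formed from the same TPM values, their direction was set by that order, and the ratios are a description with no test. ACTB exceeded PPIA by a log2 ratio of 2.11, 2.05 and 2.09 in replicates 1, 2 and 3, a mean of 2.09 ± 0.03 (SD, n = 3), with a mean ratio of TPM of 4.25. PPIA exceeded YWHAZ by 1.16, 1.31 and 1.27 on the log2 scale, a mean of 1.25 ± 0.08 (SD, n = 3), with a mean ratio of TPM of 2.38. PPIA and YWHAZ were thus separated by far more than the spread of their ratio. YWHAZ exceeded HPRT1 by 2.43, 2.34 and 2.29 on the log2 scale, a mean of 2.35 ± 0.07 (SD, n = 3), with a mean ratio of TPM of 5.16. This was the widest step in the order by TPM. By deposited coverage, the mean read depth over a gene, this step was 1.26 on the log2 scale and that from ACTB to PPIA was the widest, at 3.00. HPRT1 exceeded GUSB by 1.43, 1.38 and 1.33 on the log2 scale, a mean of 1.38 ± 0.05 (SD, n = 3), with a mean ratio of TPM of 2.65. The closest neighbours were the genes of low level. GUSB exceeded IPO8 by 0.35, 0.53 and 0.59 on the log2 scale, a mean of 0.49 ± 0.12 (SD, n = 3), with a mean ratio of TPM of 1.42. IPO8 exceeded TBP by 0.85, 0.57 and 0.61 on the log2 scale, a mean of 0.68 ± 0.15 (SD, n = 3), with a mean ratio of TPM of 1.64. Each of the 6 steps was larger than the SD of its ratio.

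Against GAPDH, the reference of the study, the 7 genes were lower in 3 of 3 libraries, with a two-sided exact p of 0.25 from sign flips for each of 7 comparisons (n = 3), the smallest p that 3 libraries allow. The log2 ratio to GAPDH was -0.52 ± 0.04 for ACTB and -2.61 ± 0.02 for PPIA (SD, n = 3). It was -3.85 ± 0.09 for YWHAZ and -6.21 ± 0.04 for HPRT1. It was -7.59 ± 0.06 for GUSB, -8.08 ± 0.11 for IPO8 and -8.75 ± 0.04 for TBP. The SD was thus lowest for PPIA and highest for IPO8 with 3 libraries, but this order rested on single libraries. Without replicate 1 it was lowest for YWHAZ and highest for GUSB, and without replicate 2 it was lowest for HPRT1 and highest for YWHAZ. The direction for ACTB depended on the measure. By deposited coverage, ACTB stood at 33012, 30010 and 27531 and GAPDH at 20869, 20035 and 18233, and ACTB was 1.53 ± 0.0454 times as high as GAPDH (SD, n = 3), a log2 ratio of 0.61. The other 6 genes were below GAPDH by coverage too, with log2 ratios of -2.39 for PPIA, -3.82 for YWHAZ, -5.08 for HPRT1, -6.62 for GUSB, -7.21 for IPO8 and -7.73 for TBP.

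Constancy of the ratios was summarised over the 21 pairs of the 7 genes by the SD of the log2 ratio over 3 libraries, and M is the mean of that SD over the 6 pairs a gene takes part in. ACTB and HPRT1 had the most constant ratio, with an SD of 0.0256, followed by YWHAZ and IPO8 with 0.0260 and by ACTB and PPIA with 0.0295. YWHAZ and IPO8, the genes with the highest CV by TPM, thus moved together with 3 libraries, and YWHAZ was 19.1, 19.8 and 19.1 times as high as IPO8 in TPM. This depended on replicate 1, without which the SD of YWHAZ and IPO8 was 0.0322, rank 10 of the 21 pairs. With 3 libraries the least constant ratio was that of TBP and IPO8, with an SD of 0.152, and it differed by up to 1.21-fold between libraries. TBP and YWHAZ had an SD of 0.138, GUSB and IPO8 of 0.123 and YWHAZ and GUSB of 0.119. Without replicate 1 these SDs were 0.0273 for TBP and IPO8, 0.00486 for TBP and YWHAZ, 0.0424 for GUSB and IPO8 and 0.0746 for YWHAZ and GUSB, and PPIA and GUSB were then the least constant pair, at 0.0990. The lowest SD was likewise that of other pairs without replicate 1 (ACTB and TBP) and without replicate 2 (YWHAZ and IPO8). TBP took part in the 2 least constant pairs and had the highest M at 0.0956, above IPO8 at 0.0908, GUSB at 0.0832 and YWHAZ at 0.0807. ACTB had the lowest M at 0.0558, followed by HPRT1 at 0.0573 and PPIA at 0.0651.

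**Figure D4:**
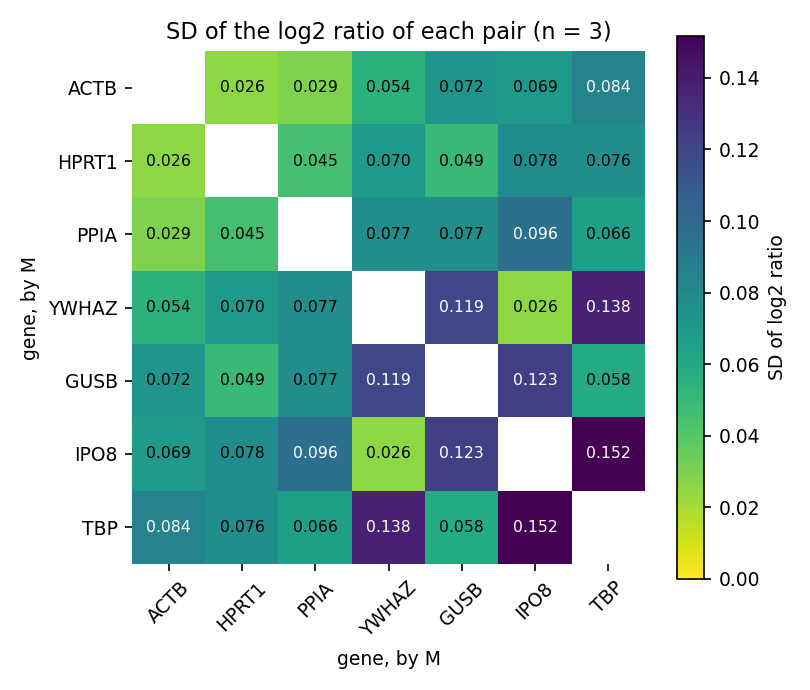
SD of the log2 ratio over 3 libraries for each of the 21 pairs of reference genes, ordered by M from ACTB to TBP on both axes. ACTB and HPRT1 have the lowest value (0.0256) and TBP and IPO8 the highest (0.152).

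The order by M rested on few libraries. Without replicate 1, TBP moved from rank 7 to rank 1 with an M of 0.0273, and GUSB took rank 7 with 0.0655. Without replicate 2, PPIA took rank 1 with 0.0614, and without replicate 3, ACTB kept rank 1 with 0.0558. ACTB held rank 1 or rank 2 in each of these settings. Removing the gene with the highest M in turn left ACTB and HPRT1 as the last pair with 3 libraries and without replicate 3, ACTB and TBP without replicate 1, and ACTB and PPIA without replicate 2. The geometric mean of the 7 genes stood at 178, 165 and 172 TPM in replicates 1, 2 and 3, with a CV of 3.68%.

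The choice of reference was then carried through to METTL3, the gene of interest of the study. Its TPM was divided by that of each candidate, and replicate 1 was set to 100%. The TPM is that of the whole gene, whereas the RT-qPCR of the study measured its splice variants with separate primers. Without a reference, METTL3 stood at 108% in replicate 2 and 101% in replicate 3. Divided by TBP, it stood at 105% and 95.9%, and divided by GAPDH at 110.4% and 102%. Divided by PPIA it stood at 112% and 105%, by ACTB at 116% and 106%, and by HPRT1 at 117% and 103%. Replicate 2 was thus the highest with each of these references, and replicate 3 fell on either side of replicate 1. Divided by GUSB, METTL3 stood at 113% and 96.3%, by YWHAZ at 124% and 114%, and by IPO8 at 129% and 114%. The highest library exceeded the lowest by 1.10-fold with TBP, 1.12-fold with PPIA and 1.29-fold with IPO8, against 1.08-fold with no reference and 1.16-fold with the geometric mean of the 7. Between the 3 libraries of a single condition, the normalised METTL3 level therefore differed by up to 1.29-fold with the reference chosen. The order of these folds depended on replicate 1. Between replicates 2 and 3 alone the widest was that with GUSB, 113% against 96.3%, and with IPO8 it was 129% against 114%. In level, GUSB and IPO8 were nearest to METTL3, at 1.15 and 0.811 times its mean, TBP stood at 0.495 times, HPRT1 at 3.03 times and ACTB at 158 times.

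The ratio of coverage to FPKM (fragments scaled for transcript length and library size) was examined because it shows how the deposited coverage and FPKM of a gene relate. The ratio differed between genes of the same library, and it was divided by the highest ratio in the library among genes of at least 1 FPKM, which was 13.3, 12.8 and 11.5 in replicates 1, 2 and 3. A ratio within 0.1% of the highest in all libraries was found in 2 of the 7 genes (ACTB and HPRT1) and in 19.8% of the 11965 genes with at least 1 FPKM in all libraries. A relative ratio below 0.6 in all libraries was found in 2 of the 7 (PPIA and YWHAZ) and in 34.5% of those genes. The median was 0.908 for the 7 and 0.789 for all. PPIA stood at 0.530, 0.528 and 0.532, and YWHAZ at 0.466, 0.468 and 0.465. GAPDH, at 0.454, 0.455 and 0.455, lay close to YWHAZ, so these genes had lower deposited coverage than ACTB at equal FPKM. TBP stood at 0.974, 0.973 and 0.973, and IPO8 at 0.856, 0.855 and 0.854. GUSB stood at 0.902, 0.900 and 0.921, the widest spread of the 7, with replicate 3 above the other libraries as for its TPM. YWHAE, the relative of YWHAZ, stood at 0.863, 0.932 and 0.929, lowest in replicate 1. The ratio of YWHAE to YWHAZ was therefore less constant by coverage than by TPM.

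**Figure D5:**
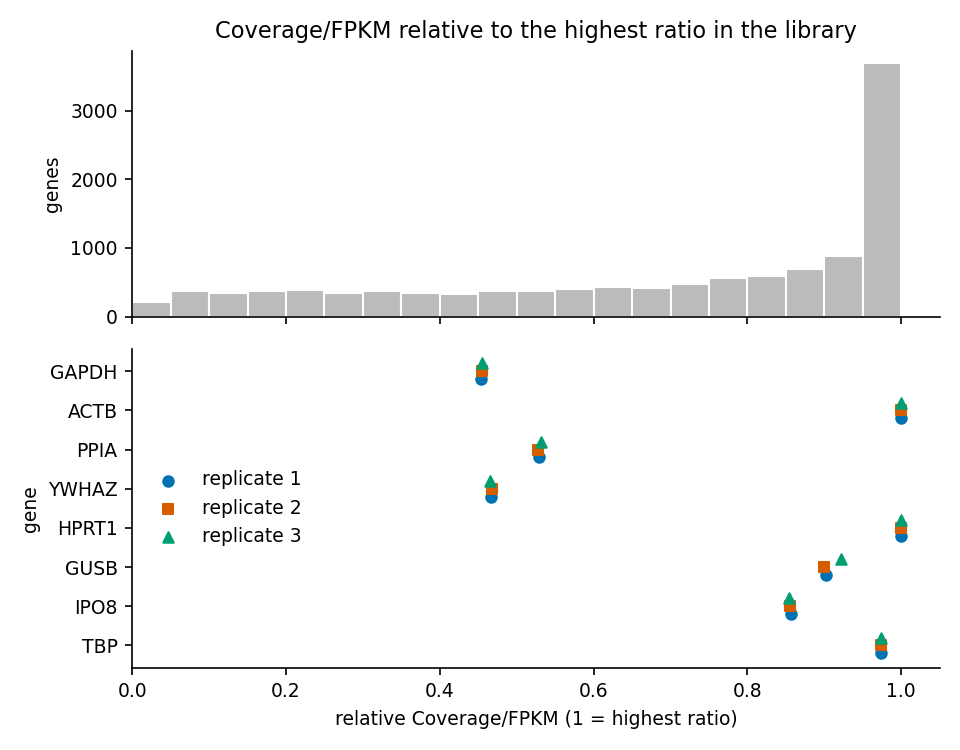
Upper panel, number of genes by the ratio of coverage to FPKM relative to the highest ratio in the library, over genes with at least 1 FPKM. Lower panel, the same relative ratio for GAPDH and the 7 reference genes in 3 libraries, with ACTB and HPRT1 at 1 and PPIA and YWHAZ near 0.530 and 0.466.

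The number of curated RefSeq transcripts is set beside this ratio. ACTB and HPRT1 each had 1 curated transcript, TBP, PPIA and IPO8 each had 2, GUSB had 5, and YWHAZ and GAPDH each had 6. The genes with 1 curated transcript were thus the genes at the highest ratio, and the coordinates of ACTB and HPRT1 in the tables were those of their MANE Select transcripts. PPIA and TBP had the same number of curated transcripts and differed in relative ratio, at 0.530 and 0.973. The MANE Select transcript was 1812 bases in 6 exons for ACTB, 2237 in 5 for PPIA and 5011 in 6 for YWHAZ. It was 1395 bases in 9 exons for HPRT1, 2199 in 12 for GUSB, 5208 in 25 for IPO8 and 1857 in 8 for TBP. The transcripts that the tables were built on were not given, so the relation of the ratio to transcript models was not tested.

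Near-identical copies were searched because reads from them could be assigned to either place. The 100-base windows used are shorter than the reads that the paper describes, so a shared window need not hold a whole read. Of the 100-base windows of the MANE Select transcript, 257 of 2138 in PPIA, or 12.0%, were found unchanged in transcripts of other genes, all of them processed pseudogenes. PPIAP22 held 251 of these windows with an identical run of up to 278 bases, and PPIAP29 held 79. In YWHAZ, 201 of 4912 windows, or 4.09%, were found in other genes, with 142 of them in YWHAZP3. In ACTB, 3 of 1713 windows were found, in ACTBP2. HPRT1, TBP, GUSB, IPO8 and GAPDH had 0 such windows. The levels of PPIA and YWHAZ are therefore uncertain as far as the counting may have split reads between copies.

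Entries named as relatives or pseudogenes had low levels for PPIA and high levels for GUSB. The 9 entries named as PPIA-like genes or PPIA pseudogenes summed to 1.46, 1.21 and 0.720 TPM, or 0.120%, 0.103% and 0.0614% of PPIA, and 4 of them were at 0 in all libraries. None of the pseudogenes that shared windows with PPIA, such as PPIAP22 and PPIAP29, was among these entries, so their levels are not known. The 8 entries named as GUSB pseudogenes summed to 35.1, 33.4 and 30.8 TPM, or 95.5%, 95.3% and 79.9% of GUSB itself. The most abundant of them were GUSBP1, at 21.5, 19.9 and 18.4 TPM, and GUSBP11, at 6.48, 6.27 and 5.97 TPM. The summed GUSB pseudogenes had their lowest value in replicate 3, where GUSB had its highest. GUSB had 0 windows in other genes, so these entries were not near-identical copies by that search. Whether reads were split between them and GUSB was not tested. No entry named as a pseudogene of ACTB, HPRT1, YWHAZ or IPO8 was found among the 39320 genes. In PPIA, 394 bases overlapped LOC105375259 on the minus strand, which stood at 0.852, 1.70 and 1.28 TPM, and since the strand setting was not given, reads of the overlap cannot be told apart. The other 6 genes overlapped 0 other entries.

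For each of the 7, the gene with the most similar level over the 3 libraries was found by the Euclidean distance of log2(TPM + 1). It was RPL7A for ACTB at a distance of 0.08, SLC7A5 for PPIA at 0.06 and SLC25A3 for YWHAZ at 0.09. For HPRT1 it was C11orf24 at 0.03, and for TBP it was ZNF205 at 0.04. The closest matches were ORC3 for IPO8, with 28.7, 24.0 and 25.2 TPM at a distance of 0.01, and MORN2 for GUSB, with 36.6, 35.1 and 38.9 TPM at a distance of 0.01. These genes were picked by their values in the same 3 libraries, so their likeness is a description.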

How the data were processed

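PolyA RNA-seq of 3 libraries labelled HepG2 (replicates 1 to 3) was used as 1 group. Per the submitters' processing notes, the authors used FastQC 0.11.8, Trim Galore 0.6.2, STAR 2.6.1a and StringTie (no version given) with GRCh38, while the annotation and strand setting were not given in the sources used here. The TPM values deposited by the authors were used as given and sum to 1000000 in each library. Deposited FPKM were scaled to length and library size before deposit. The coverage deposited by the authors is a mean read depth, not scaled for library size. The number of reads per gene and library is unknown, as counts are not part of the tables used here, and precision is given as the SD over 3 libraries.

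Entries were joined by gene, strand and coordinates. The members and lists were chosen with earlier results of these data known. Named genes were the 7 reference genes, GAPDH, the nearest gene of each member, the extremes of the list of 31 other reference genes, fixed lists of family members and pseudogenes, and fixed cell type markers. CVs were compared over genes averaging 10 TPM or more. Log2 ratios used a pseudocount of 1 and those to GAPDH were tested by an exact permutation test of their signs over libraries, as a two-sided test. The same test had been planned for neighbouring genes and is not used, since their order fixed its outcome. Median-of-ratios scaling, rescaling without mitochondrially encoded genes, FPKM or coverage in place of TPM, a pseudocount of 0.1, other limits and leaving out each replicate were tried as alternatives. CVs over all genes and SDs of pairs with a library left out, and coverage of the cyclophilins, were added after seeing the data. Coding sequences came from GENCODE release 44 and transcript numbers from RefSeq. The calculations were run with numpy 2.4.6 and pandas 2.3.3 in Python 3.11.15, and figures were drawn with matplotlib 3.10.9, and the scripts were tested on simulated data.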

Additional observations from a re-analysis of the deposited data

How the results depend on the processing

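Of 150 alternative values for 31 results, 139 were counted as unchanged, 10 moved further and 1 changed direction. Ratios between genes were unchanged if they kept their direction, and mean levels if they moved by less than the spread between libraries. Relative ratios of coverage to FPKM had to stay within that spread or a small fixed limit. The count below 5%, the median CV, the median M and the share of all genes had to stay within a fixed fold. Rescaling without mitochondrially encoded genes raised the mean level to 6324 TPM for ACTB, 1488 for PPIA, 628 for YWHAZ, 122 for HPRT1, 46.0 for GUSB, 32.5 for IPO8 and 19.8 for TBP, because the remaining genes are then scaled to the full total. By coverage in place of TPM, the log2 ratio of ACTB to GAPDH was 0.61 instead of -0.52, and the cause was not tested. Leaving out each replicate in turn gave a median CV of 1.85% to 5.25%, 3 to 6 genes with a CV below 5% and a median M of 0.0319 to 0.0972. Without replicates 1, 2 and 3 the count was 6, 5 and 3 of the 7, against 77.5%, 49.2% and 54.9% of all genes. The lowest median CV and M came without replicate 1 and the lowest count without replicate 3. Coverage divided by the highest ratio, chosen after seeing the data, gave 4 genes with a CV below 5%, as did FPKM and median-of-ratios scaling. In these settings 59.6%, 56.2% and 62.0% of all genes lay below 5%. The share of all genes with a CV below 5% was 39.0% when genes averaging 1 TPM or more were counted and 68.7% at 100 TPM or more. No paired analysis was possible because the series has 1 group. With 3 libraries an SD is imprecise, no counting error is known, and the libraries may not be separate cultures. The values concern 1 condition and do not show how constant a reference is under treatment or between tissues.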

Other observations

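Among the relatives of PPIA, the nuclear cyclophilin PPIE, named after its values were seen, had the highest CV of the 7 listed, 22.2%. It stood at 63.7, 60.8 and 41.2 TPM in replicates 1, 2 and 3, with replicate 3 below the other libraries. This depended on the measure, since when coverage was divided by the top coverage/FPKM value of the library, PPIE stood at 6.03, 5.78 and 5.51 with a CV of 4.53%, and PPIG had the highest CV, 7.82%. PPIH, a cyclophilin of the spliceosome, averaged 98.1 ± 4.34 TPM (SD, n = 3), with its lowest value in replicate 1. PPIG, another nuclear cyclophilin, stood at 17.8, 15.2 and 16.7 TPM, and PPIC and PPID lay near 37.4 and 41.7 TPM on average.

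Among the other usual reference genes, B2M, the light chain of class I antigen presentation, stood at 775, 770.2 and 782 TPM with a CV of 0.783%. TFRC, the transferrin receptor, stood at 306, 285 and 270.3 TPM with a CV of 6.27%. POLR2A, the largest subunit of RNA polymerase II, stood at 184, 181 and 181 TPM with a CV of 1.01%. These genes were likewise named after their values were seen.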
